A study of Mus musculus with 1824 samples.

Results

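Cells of the visceral and yolk sac endoderm were picked out of a plate-based single-cell RNA-seq series on mouse embryos by 6 genes of this epithelium, *Ttr*, *Apoa1*, *Apob*, *Afp*, *Amn* and *Cubn*. A cell was taken when its library held at least 100000 reads and at least 3 of the 6 genes reached 50 CPM (counts per 1000000 reads of that cell). Of 1824 wells, 1649 held enough reads, and 53 of these cells met the rule (3.21%, exact 95% binomial interval 2.42 to 4.18). All 6 genes passed 50 CPM in 42 of the 53 cells. The other 1596 cells with enough reads are called other cells below.

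The embryos were chimaeras, made per the methods of the study by injecting *Tet*-TKO embryonic stem cells, which lack the 3 TET enzymes that oxidise methylated cytosine, into wild-type C57BL/6J blastocysts. The knockout cells carried a fluorescent histone, H2B-tdTomato, and the labels give the strain as CD1 for every well. The 2 groups are the embryonic days in the labels, E7.5 (26 endoderm cells on 5 plates) and E8.5 (27 cells on 5 plates), and no drug or other treatment is named for either. The methods describe pooling chimaeras before the sort, but 4 of the E7.5 plates are each labelled with an embryo number. Whether embryos were pooled for those plates is not stated. Single cells were sorted partly by the surface proteins KDR and CD41, so a share of wells is not a share of the embryo. The labels give neither genotype nor gate for a single well, and host and knockout cells were not told apart here. Injected embryonic stem cells are known to enter this epithelium only rarely. An animal is named for 4 of the E7.5 plates and for no E8.5 plate, so E8.5 counts as 1 sample and no p-value is given between the days.

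The visceral endoderm is the polarised epithelium that wraps the early mouse embryo, and over the extraembryonic region it becomes the outer layer of the yolk sac. It takes up maternal nutrients by endocytosis, digests them in large lysosomes, and secretes lipoproteins and plasma proteins in the way the liver later does. A patch of it, the anterior visceral endoderm, secretes antagonists of Nodal and Wnt signals and so helps to place the head end of the embryo. Part of the layer is later mixed into the embryo's own gut endoderm. The genes used to choose the cells cover these tasks. *Ttr* encodes a carrier of thyroid hormone and retinol, *Apoa1* and *Apob* the main proteins of lipoprotein particles, and *Afp* the main serum protein of the fetus. *Amn* and *Cubn* encode the parts of cubam, a receptor that draws proteins into endocytic epithelia.

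The promoters of 3 of these genes are shown because they hold a short sequence bound by the FOXA factors of endoderm and liver. The windows run from 250 bases before to 50 bases after the RefSeq start site (GRCm38.p6), and RefSeq promoters matched 5 of the 6 genes. Capitals mark TGTTTGC or its reverse complement GCAAACA.
*Afp*, chr5:90490464-90490763, plus strand: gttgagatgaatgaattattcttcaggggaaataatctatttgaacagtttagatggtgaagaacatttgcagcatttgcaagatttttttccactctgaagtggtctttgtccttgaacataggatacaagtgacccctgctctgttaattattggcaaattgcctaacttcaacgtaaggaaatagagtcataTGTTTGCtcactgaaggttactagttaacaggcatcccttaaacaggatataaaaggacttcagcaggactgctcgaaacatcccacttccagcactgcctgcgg
*Apoa1*, chr9:46228380-46228679, plus strand: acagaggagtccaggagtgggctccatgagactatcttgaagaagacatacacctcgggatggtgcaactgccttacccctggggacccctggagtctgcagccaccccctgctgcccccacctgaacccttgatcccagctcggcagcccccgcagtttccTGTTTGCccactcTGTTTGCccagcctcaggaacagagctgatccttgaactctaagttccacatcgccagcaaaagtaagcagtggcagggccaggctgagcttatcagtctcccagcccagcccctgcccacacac
*Apob*, chr12:7977427-7977726, plus strand: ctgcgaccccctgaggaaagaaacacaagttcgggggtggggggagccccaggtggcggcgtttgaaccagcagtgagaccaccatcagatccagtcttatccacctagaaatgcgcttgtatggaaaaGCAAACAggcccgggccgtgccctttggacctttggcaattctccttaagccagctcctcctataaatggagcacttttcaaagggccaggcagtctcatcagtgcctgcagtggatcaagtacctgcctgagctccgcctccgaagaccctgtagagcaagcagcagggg
Relative to the start site, TGTTTGC begins at -55 in *Afp* and at -88 and -75 in *Apoa1*, and GCAAACA begins at -121 in *Apob*. Searched on both strands, TGTTTGC lies in 5.07% of all 32851 promoters and in 4.2% of the 1238 promoters of genes called higher in the endoderm cells below. TGTTTAC, the other FOXA form searched, lies in 3.65% of all promoters and in 4.93% of those 1238. AGATAA, a motif of GATA factors, lies in 11.2% of all promoters and 8.08% of the 1238, and CAAAGTC, a motif of HNF4, in 4.44% and 6.95%. These matches describe letters and carry no measure of binding.

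Endoderm cells were found on 10 of 19 plates, and 40 of the 53 came from 3 of them. E8.5 plate 1 held 17 of 92 cells (18.5%, 11.1 to 27.9), the plate of embryo 4 held 12 of 91 (13.2%) and that of embryo 5 held 11 of 88 (12.5%). The plates of embryos 1 and 2 held 0 of 92 and 0 of 94. E8.5 plates 6 and 7 held 4 each, and 5 further plates held 1 each. The gate behind each plate is not in the labels, so sort and plate cannot be told apart.

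**Figure D1:**
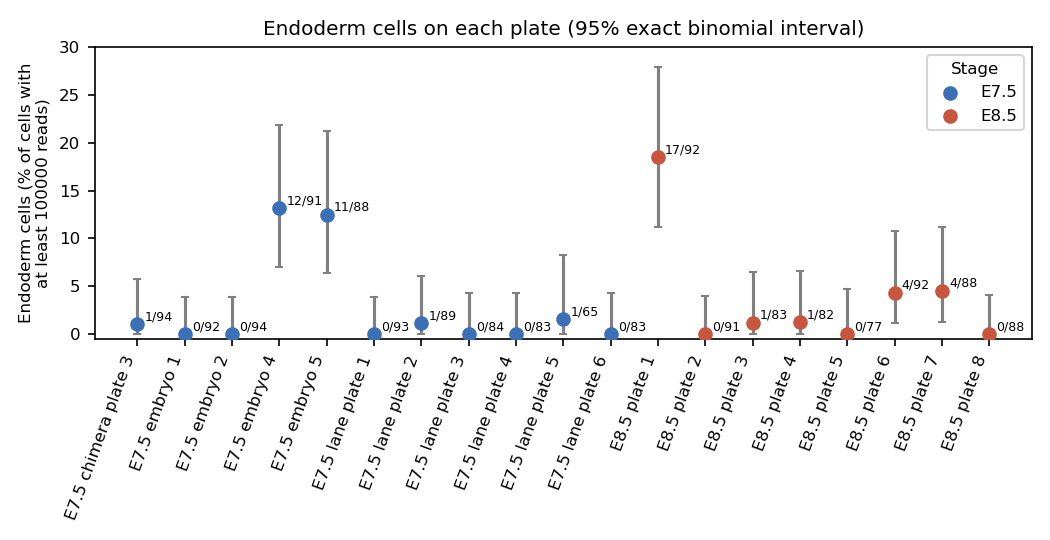
Share of cells that met the endoderm rule on each of the 19 plates, as a percent of cells with at least 100000 reads, with exact 95% binomial intervals and the counts beside each point. E8.5 plate 1 and the plates of embryos 4 and 5 stand between 12.5% and 18.5%, and the other 16 plates lie below 5%.

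Few cells lay near the limits of the rule. Of the 1649 cells, 1553 had none of the 6 genes at 50 CPM, 32 had 1, 11 had 2, and only 11 had 3 to 5. In the 11 cells with 2 markers the third-highest of the 6 genes lay between 0 and 49.8 CPM (median 33.6). In the 5 cells with exactly 3 it lay between 56.1 and 102.9 CPM. At E7.5 an endoderm cell held 128738 to 1944443 reads, while E8.5 cells held 293574 to 2530425, and the 53 libraries hold 46754069 reads in all. After each cell was thinned to 100000 reads, the median number of genes with a read was 7019 in the earlier and 6955 in the later cells (8039 and 8995 before thinning). All 53 cells lay within the limits on mitochondrial and ribosomal reads described in the methods, and no 2 of them held identical counts.

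Some of the 53 cells did not match the label. Several calls that rest on the cells named in this paragraph are given with and without them. The 4 cells of E8.5 plate 7 had no read of *Lrp2*, *Rhox5* or *Trap1a*, and *Cubn* was at 0 in 3 of them and at 142.4 CPM in the remaining cell. In 3 of the 4, *Nepn*, a gene of the embryo's midgut and hindgut endoderm, stood at 2699, 3031 and 8393 CPM, and in the remaining cell it was at 0. *Krt19*, a keratin of simple epithelia, stood at 221.2 to 750.8 CPM in the 4 cells, against 0, 2.31 and 96.004 CPM as lowest, median and highest value on plate 1 and 0, 123.6 and 495.1 CPM in embryo 5. They are called the *Nepn* and *Krt19* cells of plate 7, with no type name. Another 4 cells carried at least 3 genes of a fixed list of blood and vessel precursors (*Kdr*, *Pecam1*, *Cdh5*, *Tal1*, *Etv2*, *Tie1*). Across all members *Kdr*, the receptor used in the sort, passed 50 CPM in 7 cells. It was highest in well C08 of E8.5 plate 3 (2111 CPM), G08 of lane plate 2 (1347 CPM), A06 of E8.5 plate 6 (1099 CPM) and H06 of E8.5 plate 4 (936.997 CPM). In 3 of these 4 wells only 3 of the 6 endoderm genes passed 50 CPM, and in C08 of plate 3 all 6 did, at 120.7 to 718.05 CPM. Wells B04 and C08 of E8.5 plate 6 held all 6 endoderm genes at 1562 CPM or more, *Kdr* at 244.2 and 258.4 CPM, and 11950 and 11261 genes, among the highest gene numbers of the 53. Whether these wells held more than 1 cell was not tested.

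**Figure D2:**
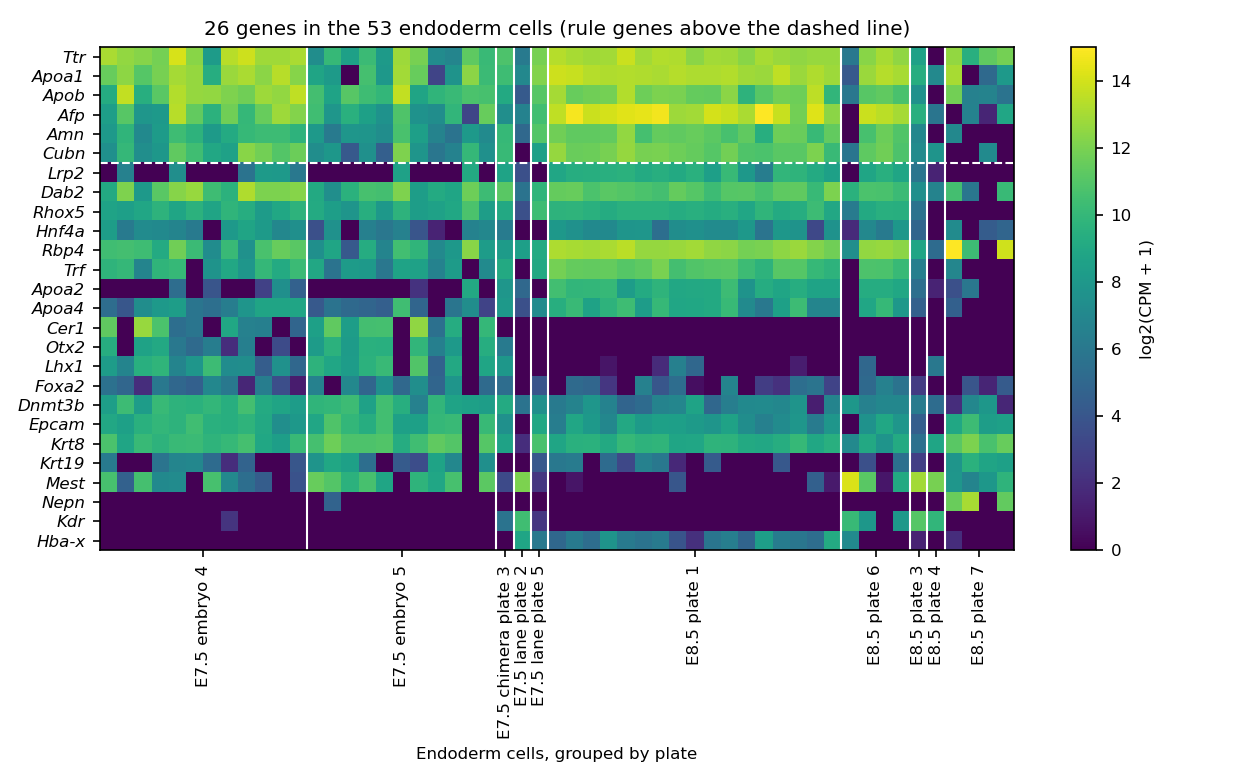
Levels of 26 genes (rows) in the 53 endoderm cells (columns, grouped by plate with white lines), as log2(CPM + 1). All 17 cells of E8.5 plate 1 had *Lrp2* and *Rhox5* and none had *Cer1* or *Otx2*, while levels of other genes such as *Afp* varied. The cells of embryos 4 and 5 differ among themselves in *Lrp2*, *Cer1*, *Otx2* and *Mest*, and the last 4 columns (E8.5 plate 7) lack *Lrp2* and *Rhox5*.

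Lists of markers for other tissues were read in the same cells. No member held 3 or more genes of the lists for extraembryonic ectoderm, extraembryonic mesoderm, leukocytes or maternal decidua. Of the 6 genes of the parietal endoderm list, the sister tissue that lines the outer wall of the yolk sac cavity, 7 members held 3 or more, and the summed level of the list in the members was 224.96 CPM against 129.1 CPM in other cells, with medians over cells of 189.1 and 22.6 CPM. Of these genes *Plat*, *Prdm1*, *Pth1r* and *Srgn* met the rule for a higher call in members that is given below, and *Fst* and *Thbd* that for a lower call. The call of *Plat* was lost without E8.5 plate 7 (log2 ratio 0.17) and without embryo 5 (0.75). That of *Thbd* was lost without plate 1 (-0.33), without embryo 4 (-0.88) and without embryo 5 (-0.88). It was also lost under other scalings and against only the other cells of those plates (-0.016). For definitive endoderm and axial mesendoderm 10 members held 3 or more of 10 genes, a list that shares *Cer1*, *Sox17* and *Foxa2* with the visceral endoderm, and its sum was 696.7 CPM against 165.6 CPM in other cells (medians 152.7 and 0). All 10 were E7.5 cells of embryos 4 and 5, and wells B12 and G02 of embryo 5 held 6 of the genes. They were kept as members, and whether they belong to another endoderm type was not tested. For the epiblast 6 members held 3 or more genes (medians of the sum 249.2 CPM in members and 253.8 CPM in other cells). For the primitive streak 1 member did (well F08 of embryo 4), and for erythroid cells 5. The erythroid list summed to 174.04 CPM in members and 19951 CPM in other cells.

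The rule genes varied more between the cells of an embryo than between those of plate 1 in the 3 examples that follow. In GRCm38 *Afp* lies at chr5:90490737-90508907, *Apoa1* at chr9:46228580-46230466, *Apob* at chr12:7977648-8016835, *Amn* at chr12:111271095-111276426 and *Cubn* at chr2:13276338-13491813. CPM is not divided by gene length, so levels are compared between cells and not between genes. *Afp* had a lowest, median and highest value of 233.2, 2424 and 10543 CPM on the plate of embryo 4, 7.77, 373.04 and 2968 CPM on that of embryo 5 and 3579, 14470 and 38009 CPM on plate 1. *Apoa1* ran through 641.3, 5452 and 10752 CPM, 0, 430.7 and 7664 CPM and 6843, 9391 and 14707 CPM on the same plates. *Cubn* ran through 171.2, 1186 and 5256 CPM, 16.99, 181.2 and 4461 CPM and 1149, 3146 and 6299 CPM. Embryo 5 had the lowest medians for all 3 genes. The cells of plate 1 overlapped the upper part of the embryo 4 range, and for *Afp* the median of plate 1 lay above the highest cell of embryo 4. The 6 genes together took 2.39 to 6.69% of a cell's reads on plate 1 (median 4.16), 0.826 to 4.97% in embryo 4 (median 2.68) and 0.137 to 3.52% in embryo 5 (median 0.381). Other cells, which the rule defined by low values, had pooled levels between 0.638 (*Apob*) and 4.09 CPM (*Ttr*). On plate 1 their pooled *Afp* was 9.09 CPM and 43 of 75 had an *Afp* read (57.3%), against 8.86% in embryo 4, 7.79% in embryo 5 and 0 to 4.55% on plates without members.

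The first comparison asks which other genes went with the 6. It sets the summed reads of the 53 cells against those of all other cells, as a log2 ratio of CPM with 1 CPM added to both sides. Since the 6 genes chose the cells, every ratio in this contrast is a description and carries no test. A gene was called higher when its log2 ratio was at least 1 (2-fold) and was above 0 within each of the 3 plates with at least 5 endoderm cells, and lower in the mirror case. Of 10198 genes with at least 10 CPM on either side, 1131 were called higher (11.1%) and 10.2% lower, with a median log2 ratio of -0.18 over all of them. Counts of a list below stand beside these shares, and nothing is read from them about the list as such.

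Most tested genes for lipoproteins and plasma proteins were called higher. All 9 tested genes of the list for apolipoproteins and lipid export were called higher, with a median log2 ratio of 6.11, while *Apoc2* was below the minimum and *Apoh* had no read in the 53 cells. *Apom*, which carries signalling lipids on high-density lipoprotein, was at 1841 CPM (1828 to 1853) in the members (95% Poisson interval, counting error only) and 0.712 CPM (0.667 to 0.759) in other cells. *Apoe*, a ligand for lipoprotein uptake, passed 50 CPM in 52 of 53 cells, with 3316, 7488 and 12656 CPM as lowest, median and highest value in embryo 4, 1965, 4171 and 10661 CPM in embryo 5 and 2352, 8394 and 17251 CPM on plate 1. It was also present in other cells (477.4 CPM), so its log2 ratio, 3.92, was smaller than that of *Apom* (10.07). *Mttp*, which loads lipid onto *Apob* protein, had 386.2, 1243 and 1835 CPM in embryo 4, 15.7, 183.1 and 1025.3 CPM in embryo 5 and 311.8, 647.9 and 1048.9 CPM on plate 1 and a log2 ratio of 6.53. Of 11 tested plasma protein genes 10 were called higher (median 6.04), and *Vtn* was not. The 3 fibrinogen chains, *Fga*, *Fgb* and *Fgg*, had log2 ratios of 8.03, 8.02 and 8.07, and the retinol carrier *Rbp4* one of 10.002. *Alb*, the main serum protein of the adult liver, was below the minimum at 0.171 CPM.

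Genes for endocytosis and digestion were called higher in 9 of 11 cases (median log2 ratio 3.50). *Dab2*, the clathrin adaptor of the cubam and megalin receptors, passed 50 CPM in 52 of the 53 cells and had a log2 ratio of 5.63. It ran through 265.6, 4181 and 9429.5 CPM in embryo 4, 166.2, 764.7 and 4359 CPM in embryo 5 and 1096, 2118 and 4243 CPM on plate 1. *Lrp2*, which encodes megalin, had a log2 ratio of 3.96 but passed 50 CPM in only 30 of 53 cells, as described below. The lysosomal proteases *Ctsh*, *Lgmn*, *Ctsl* and *Ctsz* had log2 ratios of 7.11, 5.02, 4.30 and 3.50. *Lamp2*, a protein of the lysosome membrane, was called neither way.

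Transport genes followed the same side in 8 of 12 cases (median 3.20). *Slc2a2*, a glucose transporter of liver and gut, had a log2 ratio of 8.78, and *S100g*, a calcium-binding protein of absorptive epithelia, one of 8.96. *Slc40a1*, which exports iron, was called higher (194.7 against 11.1 CPM), and *Tfrc*, which takes up transferrin-bound iron, was called lower (76.9 against 264.4 CPM). Among 5 tested retinoid genes 3 were called higher, including the retinol oxidising enzyme *Rdh10* and the retinoic acid degrading enzyme *Cyp26a1*, while *Aldh1a2*, which makes retinoic acid, had no read in the members and 12.9 CPM in other cells, at least 200.9-fold lower with 3 reads as the floor over the pool. The call of *Cyp26a1* (log2 1.07) was lost without embryo 4 (0.72) and without embryo 5 (0.02). Of 8 genes of cholesterol synthesis and uptake none was called higher and 3 were called lower, among them *Sqle* and *Idi1* (log2 -1.72 and -2.29).

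Of 16 tested endoderm transcription factor genes 8 were called higher and none lower (median 1.66). *Hnf4a*, a nuclear receptor that drives liver and visceral endoderm genes, stood at 130.04 CPM (126.8 to 133.4) in members and 0.219 CPM (0.194 to 0.246) in other cells. It had 0, 141.6 and 428.9 CPM in embryo 4, 0, 61.03 and 194.2 CPM in embryo 5 and 8.66, 182.4 and 258.02 CPM on plate 1, so the 3 plates overlapped. *Creb3l3*, a membrane-bound regulator of lipid genes, and *Foxa3* had log2 ratios of 7.23 and 3.90. *Gata4* was called higher (2.39) and *Gata6* was not (0.07). *Sox17* was at 73.3 against 37.8 CPM and was not called. *Foxa1* lost its call without embryo 5, where its log2 ratio was 0.39. Of 8 tested anterior visceral endoderm genes *Dkk1* and *Sfrp5*, both Wnt antagonists, were called higher (1.42 and 3.40), and *Dkk1* was at -0.52 without embryo 5.

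Of the 10 epithelial genes 8 were called higher (median 2.09). *Vil1*, the villin of the brush border, was at 219.3 CPM in members and 0.556 CPM in other cells. *Cldn6*, a tight junction protein, and *Krt8* and *Krt18*, keratins of simple epithelia, had log2 ratios of 3.55, 1.67 and 2.18. None of the 10 basement membrane genes was called either way, since each missed the 2-fold limit or differed in sign between plates. *Col4a1*, a collagen of that layer, had within-plate log2 ratios of 7.14 on plate 1, 3.08 in embryo 4 and -0.45 in embryo 5. Without embryo 5, 4 of the 10 were called higher.

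Among 9 tested signals and processing enzymes, *Ihh*, *Vegfa*, *Furin* and *Gpc3* were called higher and *Bmp4* and *Pdgfa* lower. *Ihh*, a hedgehog ligand that the yolk sac endoderm sends to the mesoderm beneath it, had a log2 ratio of 5.09, and *Bmp4*, which the extraembryonic ectoderm and mesoderm make, one of -4.07. For the 8 tested DNA methylation enzymes the ratios were small. *Uhrf1*, the cofactor of maintenance methylation, was called lower at -1.02, a call lost without any 1 of the 3 plates (-0.98 to -0.89), and *Dnmt1*, *Dnmt3a*, *Dnmt3b*, *Tet1*, *Tet2*, *Tet3* and *Tdg* were called neither way.

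Of the 8 imprinted genes *H19* and *Cdkn1c*, both expressed from the maternal copy, were called higher (log2 2.15 and 1.90). The X-linked genes *Rhox5* and *Trap1a*, named by the study as extraembryonic, depended on the plate, with within-plate log2 ratios of 9.07 and 8.83 on plate 1 but -0.64 and -0.74 in embryo 4 and -0.73 and 0.41 in embryo 5. On these 3 plates *Rhox5* passed 50 CPM in every endoderm cell, with 304.5, 483.8 and 913.6 CPM in embryo 4, 220.9, 382.2 and 1732 CPM in embryo 5 and 459.9, 713.8 and 1232 CPM on plate 1, and over all 53 cells it was below 50 CPM in 6, the 4 of plate 7 among them. *Xlr3a*, the third of these genes tested, was called higher at 3.35.

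Outside the lists and the rule, the called genes with the largest log2 ratios included *Car7*, a carbonic anhydrase (9.004), *Spp2* (8.78), *Lgals2* (7.93), the zinc transporter *Slc39a5* (7.89), the sulphate transporter *Slc13a4* (7.71), the trypsin inhibitor *Spink1* (7.43), *Cldn2* (7.41), *Pla2g12b* (7.30) and *Serpinf2*, an inhibitor of plasmin (6.98). The lowest were *Hba-a1* (-7.21), an adult-type globin, *Gfi1b* (-5.80), *Tspan32* (-5.38), *Bcat1* (-5.08) and *Acta2* (-5.05). *Acta2*, a smooth muscle actin, was near 0 in the other cells of the 3 plates too, where its log2 ratio was -0.05.

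A closer comparison is with neighbouring epithelia. These are the 48 non-members with at least 3 markers of definitive endoderm and axial mesendoderm and the 94 with at least 3 of extraembryonic ectoderm, both chosen by measured markers and described without a test. *Epcam* was at 392.6 CPM in the endoderm cells, 419.6 in the definitive endoderm and axial cells and 457.9 in the extraembryonic ectoderm cells, and *Cdh1*, the adhesion protein of epithelia, at 322.3, 377.1 and 436.1 CPM. *Rhox5* was high in the extraembryonic ectoderm cells too, at 590.5, 13.9 and 1438 CPM in the same order. *H19* stood at 621.01, 19.4 and 411.3 CPM. *Cer1* and *Foxa2* were higher in the definitive endoderm and axial cells, which they helped to define, with 293.4, 1803 and 0.159 CPM for *Cer1* and 37.2, 131.8 and 0.0528 CPM for *Foxa2*. *Hnf4a*, *Dab2* and *Vil1*, which defined none of the 3 sets, were at 130.04, 2061 and 219.3 CPM in the endoderm cells, at 0.957, 45.7 and 4.19 CPM in the definitive endoderm and axial cells and at 0, 10.04 and 0.581 CPM in the extraembryonic ectoderm cells.

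Within E7.5 the anterior visceral endoderm genes and *Lrp2* were uneven between the endoderm cells. *Cer1*, the secreted Nodal antagonist, ran through 0, 71.6 and 6490.0 CPM in embryo 4 and 0, 629.95 and 5856 CPM in embryo 5, and passed 50 CPM in 15 of the 23 cells. *Otx2*, a homeodomain factor of the anterior side, ran through 0, 49.4 and 651.2 CPM and 0, 301.8 and 944.03 CPM and passed 50 CPM in 15 of 23. *Lrp2* ran through 0, 25.7 and 286.96 CPM and 0, 0 and 559.3 CPM and passed in 8 of 23. Only 2 cells had both *Lrp2* and *Otx2* at 50 CPM, while 6 had *Lrp2* only, 13 *Otx2* only and 2 neither. *Otx2* and *Lhx1*, another homeodomain factor, passed together in 14 cells, and *Otx2* and *Cer1* in 12.

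*Mest*, an imprinted gene expressed from the paternal copy, followed *Otx2*. It ran through 0, 84.6 and 1603 CPM in embryo 4 and 0, 877.6 and 2919.8 CPM in embryo 5, and both genes passed 50 CPM in 14 cells, 1 of them in 2 cells and neither in 7. Ranked by *Cubn* over the 23 cells, *Lrp2*, *Dab2* and *Lgmn* had Spearman coefficients of 0.76, 0.75 and 0.84, and *Otx2*, *Cer1* and *Mest* had -0.66, -0.57 and -0.67. Such values were not limited to anterior visceral endoderm genes. *Chrd* and *Trh* of the definitive endoderm and axial list had -0.65 and -0.59. *Fgf5* of the epiblast list and *Fgf8* of the streak list had -0.62 and -0.65, while *Utf1* of the epiblast list had 0.38. These are descriptions over cells that share 2 plates and come from cells chosen partly by *Cubn*. Within embryo 4 (12 cells) *Dab2*, *Lgmn*, *Otx2*, *Cer1* and *Mest* had coefficients of 0.82, 0.84, -0.54, -0.49 and -0.58. Within embryo 5 (11 cells) the same genes had 0.20, 0.46, -0.07, -0.09 and -0.12, all nearer to 0 than in embryo 4. *Lrp2* had 0.73 within embryo 4. For *H19* the coefficients were 0.76 over the 23 cells, 0.38 within embryo 4 and 0.79 within embryo 5, and for the iron exporter *Slc40a1* they were 0.64, 0.83 and 0.15.

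**Figure D3:**
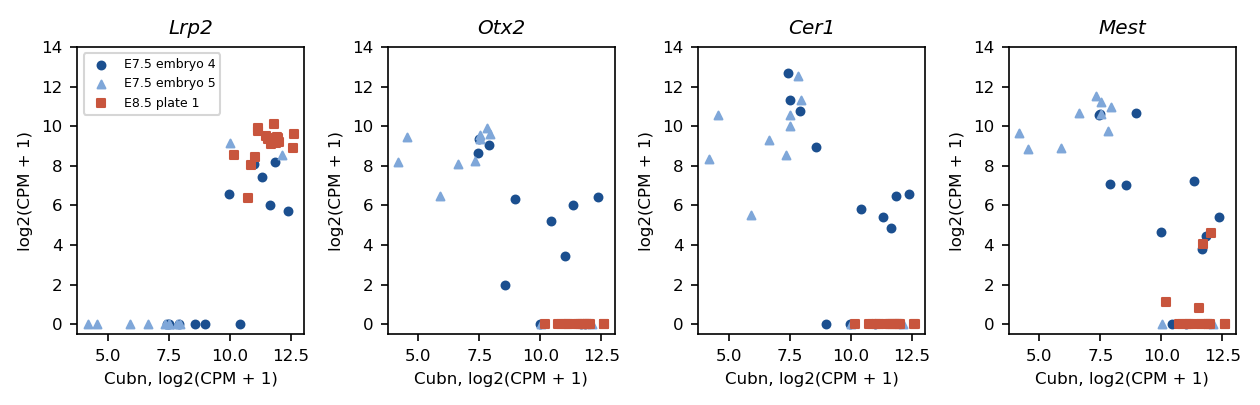
*Lrp2*, *Otx2*, *Cer1* and *Mest* (vertical axes) against *Cubn* (horizontal axes) in the endoderm cells of embryo 4, embryo 5 and E8.5 plate 1, 1 point a cell, all as log2(CPM + 1). *Lrp2* was at 0 in 15 of the 23 E7.5 cells, all 17 cells of plate 1 had *Lrp2* and none of them had *Otx2* or *Cer1*.

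The second comparison asks how the endoderm cells of E8.5 differed from those of E7.5. Reads were summed over the 26 and 27 cells and compared as before. A gene was called higher at E8.5 when the log2 ratio was at least 1 and the pooled E8.5 level lay above the levels of both embryo 4 and embryo 5, and lower in the mirror case. Of 9800 genes with at least 10 CPM at either day, 1270 were called higher (13%) and 1566 lower (16%), with a median log2 ratio of -0.07. Since 17 of the 27 E8.5 cells came from 1 plate, day, plate and gate cannot be told apart, and there is no replicate check at E8.5. Values are therefore repeated for the 40 cells (21 of the earlier and 19 of the later day) with all 6 endoderm genes and fewer than 3 blood and vessel genes, called the 40 full-marker cells. Most of the E7.5 cells with 3 or more definitive endoderm and axial markers stay in that set.

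The anterior visceral endoderm genes were low or not detected at E8.5. Of its 10 tested genes 9 were called lower and none higher, with a median log2 ratio of -4.04, and the count was 9 of 10 in the 40 full-marker cells. *Cer1* went from 858.9 CPM (844.6 to 873.4) to 0 reads in 30781415, which is at least 8813-fold lower when 3 reads are taken as the floor over the pool. *Otx2* went from 216.8 CPM (209.6 to 224.2) to 0 reads, at least 2225-fold lower. *Lhx1* fell from 374.1 to 8.87 CPM, and *Dkk1*, a Wnt antagonist, from 166.6 to 8.80 CPM. After thinning to 100000 reads, *Cer1* and *Otx2* were each seen in 18 of 26 E7.5 cells and in none of the 27 E8.5 cells (0 of 27). *Lefty1*, the one gene of the list not called (18.9 against 0.260 CPM), had a read in 1 cell of embryo 4 and 1 of embryo 5. *Nodal* itself was at 53.97 CPM in the earlier cells and had no read in the later ones. The fall was not limited to this list. Of 6 tested definitive endoderm and axial genes 4 were called lower (*Cer1*, *Chrd*, *Sox17* and *Trh*) and 1 higher (*Nepn*). Of the epiblast list 3 of 4 tested genes were called lower, and of the streak list 2 of 2. Whether the mix of cell types differed between the days was not tested.

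Of 11 tested plasma protein genes 8 were called higher at E8.5 and none lower (median 1.76). Without plate 1, 3 of 10 were called higher and 1 lower (median 0.21). Most cells of that smaller set are the *Nepn* and *Krt19* cells of plate 7 and wells with high *Kdr*. It therefore cannot show what plate 1 alone adds. In wells B04, C06 and C08 of plate 6 *Rbp4* was at 6111, 6660 and 5295 CPM. Of the genes not called over all members, *Ambp* was at -0.95. *Rbp4* ran through 153.03, 1337 and 3429 CPM in embryo 4, 16.99, 311.2 and 5158 CPM in embryo 5 and 3445, 6395 and 11197 CPM on plate 1. The lowest value of plate 1 lay just above the highest of embryo 4 and below the highest of embryo 5. That highest value came from well G08, which had the fewest reads (128738) and genes (3068) of the 53 cells. The next highest cell of embryo 5, well E08, was at 1419 CPM. Well G08 also set the highest *Apoa2* and *Rhox5* values of embryo 5. *Fga* ran through 0, 12.5 and 198.9 CPM, 0, 0 and 29.1 CPM and 43.3, 462.5 and 992.6 CPM on the same plates, with most E7.5 cells at or near 0. *Trf*, the iron carrier transferrin, ran through 0, 716.2 and 1198 CPM, 0, 277.1 and 513.8 CPM and 818.01, 2184 and 4111 CPM. The pooled log2 ratios were 2.49 for *Rbp4*, 3.64 for *Fga* and 1.76 for *Trf*, and 2.47, 3.87 and 1.92 in the 40 full-marker cells. Without plate 1 *Trf*, *Fgb* and *Fgg* were at 0.22, 0.82 and 0.19 and not called, while *Rbp4* and *Fga* were. *Vtn*, also called (1.11), was at -2.67 without plate 7 and had a log2 ratio of -2.80 in the 40 full-marker cells, where 7 of 10 tested plasma protein genes were called higher.

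The 6 rule genes and the lipid export genes moved less evenly. *Afp* rose from 2309 CPM (2285 to 2332) to 14139.8 CPM (14098 to 14182) and *Amn* from 752.3 CPM (738.96 to 765.9) to 2076 CPM (2059.7 to 2092) (log2 2.61 and 1.46, the latter 0.17 and not called without plate 1), whereas *Apoa1*, *Cubn*, *Ttr* and *Apob* were not called (0.95, 0.98, 0.32 and -0.36). In the 40 full-marker cells *Apoa1* and *Cubn* also passed (1.10 and 1.12). The 6 genes chose both the members and these 40 cells, so their ratios are descriptions and lend no support to a change. Of 9 lipid export genes 5 were called higher (median 1.14), and the same number in the 40 full-marker cells, but without plate 1 only 1 was called higher and 2 lower (median 0.02). *Apoa2*, an apolipoprotein of high-density lipoprotein, was at 50 CPM in 1 of 12 cells of embryo 4, 1 of 11 of embryo 5 and all 17 of plate 1, and ran through 0, 0 and 175.5 CPM, 0, 0 and 535.97 CPM and 211.2, 572.98 and 1419 CPM. Its pooled log2 ratio was 3.41. *Apoe* and *Mttp* were not called (0.20 and -0.49).

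Absorptive genes showed the largest ratios among transport genes. *Slc2a2* ran through 0, 0 and 157.4 CPM in embryo 4, 0, 0 and 318.5 CPM in embryo 5 and 485.03, 844.4 and 1261 CPM on plate 1, and *S100g* through 0, 61.4 and 268.9 CPM, 0, 19.3 and 1033.1 CPM and 624.8, 1599.5 and 2782 CPM. No cell of plate 1 overlapped an embryo cell in *Slc2a2*. The log2 ratios were 4.41 and 3.83, and 4 of 12 transport genes were called higher (median 0.55). Of 11 endocytic genes 2 were called higher (median 0.10), with *Lrp2* going from 130.5 CPM (124.9 to 136.2) to 519.05 CPM (511.03 to 527.2). *Lrp2* passed 50 CPM in all 17 cells of plate 1, and without that plate its log2 ratio was 0.68, not called. *Dab2*, *Ctsl* and *Lgmn* were not called (-0.54, -0.24 and 0.21). In the retinoid list *Cyp26a1* fell from 455.3 to 6.95 CPM and *Crabp2*, a carrier that delivers retinoic acid to the nucleus, rose from 1.88 to 70.6 CPM.

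**Figure D4:**
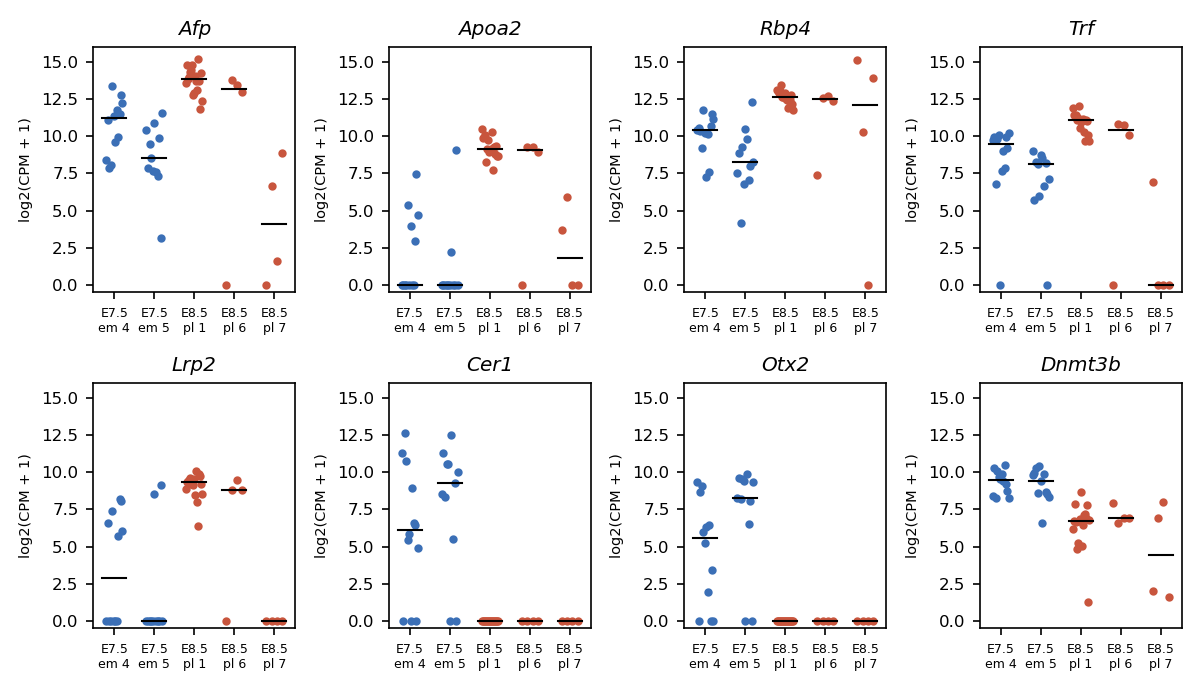
Levels of 8 genes in single endoderm cells of the plates of embryos 4 and 5 (em 4 and em 5) and of E8.5 plates 1, 6 and 7 (pl 1, pl 6 and pl 7), as log2(CPM + 1), with a line at the median of each plate. *Apoa2* and *Trf* were high in all 17 cells of plate 1 and in 3 of 4 cells of plate 6, *Cer1* and *Otx2* were at 0 in all E8.5 cells shown, and the 4 cells of plate 7 lacked *Lrp2*.

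Among 16 tested transcription factor genes 6 were called lower at E8.5 (*Eomes*, *Foxa1*, *Foxa3*, *Gata4*, *Hhex* and *Sox17*) and 1 higher (*Cdx2*). *Hhex*, a homeobox gene of the anterior visceral endoderm and liver, fell from 99.4 to 5.62 CPM, *Foxa1* from 38.9 to 1.69 CPM and *Eomes* from 96.98 to 6.40 CPM. *Gata4* lost its call without embryo 4 (-0.78), *Foxa3* and *Sox17* without embryo 5 (-0.47 and -0.45), and *Sox17* changed from -1.03 to 0.19 without plate 1. *Cdx2*, a posterior and trophoblast factor, rose from 9.52 to 38.1 CPM. *Hnf4a* and *Creb3l3* were not called (0.10 and 0.81). *Ihh* and *Bmp6* were called higher and *Nodal* and *Bmp2* lower among 10 signals and processing enzymes. *Ihh* ran through 0, 0 and 80.5 CPM in embryo 4, 0, 0 and 25.4 CPM in embryo 5 and 2.32, 51.4 and 181.3 CPM on plate 1.

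The enzymes that place DNA methylation changed in opposite directions. *Dnmt3b*, one of the de novo methyltransferases, ran through 306.9, 717.7 and 1459 CPM in embryo 4, 96.6, 680.8 and 1384 CPM in embryo 5 and 1.44, 103.1 and 410.4 CPM on plate 1, and its pooled level fell from 644.8 CPM (632.4 to 657.4) to 120.6 CPM (116.7 to 124.5). *Dnmt3a*, the other one, ran through 0, 125.8 and 280.7 CPM, 0, 48.2 and 114.7 CPM and 67.3, 213.5 and 432.8 CPM, and its pooled level rose from 83.5 CPM (79.1 to 88.1) to 206.8 CPM (201.8 to 211.99). The cells of the days overlapped in both genes. The log2 ratios were -2.41 and 1.30, and -2.33 and 1.27 in the 40 full-marker cells. Of the others *Tet2* was called lower (-1.18, and -0.40 without plate 1) and *Dnmt1*, *Uhrf1*, *Tet1*, *Tet3* and *Tdg* were not called (-0.49, 0.25, -0.75, -0.57 and 0.24). Reads of the *Tet* genes do not give the genotype of a cell here.

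Of 8 imprinted genes 2 were called higher and 1 lower at E8.5 (median 0.53). *Phlda2*, expressed from the maternal copy, was at 50 CPM in 1 of 12 cells of embryo 4, 1 of 11 of embryo 5 and all 17 of plate 1, with 0, 4.80 and 126.9 CPM, 0, 0 and 347.4 CPM and 289.9, 852.3 and 1921 CPM. *Grb10* went the other way, with 224.4, 1692 and 5239 CPM, 275.1, 1424 and 3323 CPM and 0, 55.7 and 192.9 CPM, and no cell of plate 1 reached the lowest cell of either embryo. The pooled log2 ratios were 3.70 and -2.93, and *Dlk1* was also called higher (2.92), while *H19*, *Cdkn1c*, *Peg3* and *Igf2r* were not called (-0.07, 0.50, -0.39 and 0.55). *Mest* turned on which cells were counted. Its pooled ratio over all members was 0.99, not called. The 5 E8.5 members with *Kdr* at 50 CPM or more held 557.4 to 18192 CPM, and the 18 with all 6 endoderm genes and less *Kdr* held 0 to 23.1 CPM. In the 40 full-marker cells it was called lower (540.9 against 13.7 CPM, log2 -5.21). The 4 cells of plate 7 held *Mest* at 107.3 to 853.5 CPM with no *Kdr* read. Over all members 19 had *Mest* at 50 CPM without *Kdr* and 6 had both, and in embryos 4 and 5 *Mest* passed in 15 of 23 cells and *Kdr* in none. The part of other cells' RNA in these levels was not tested.

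**Figure D5:**
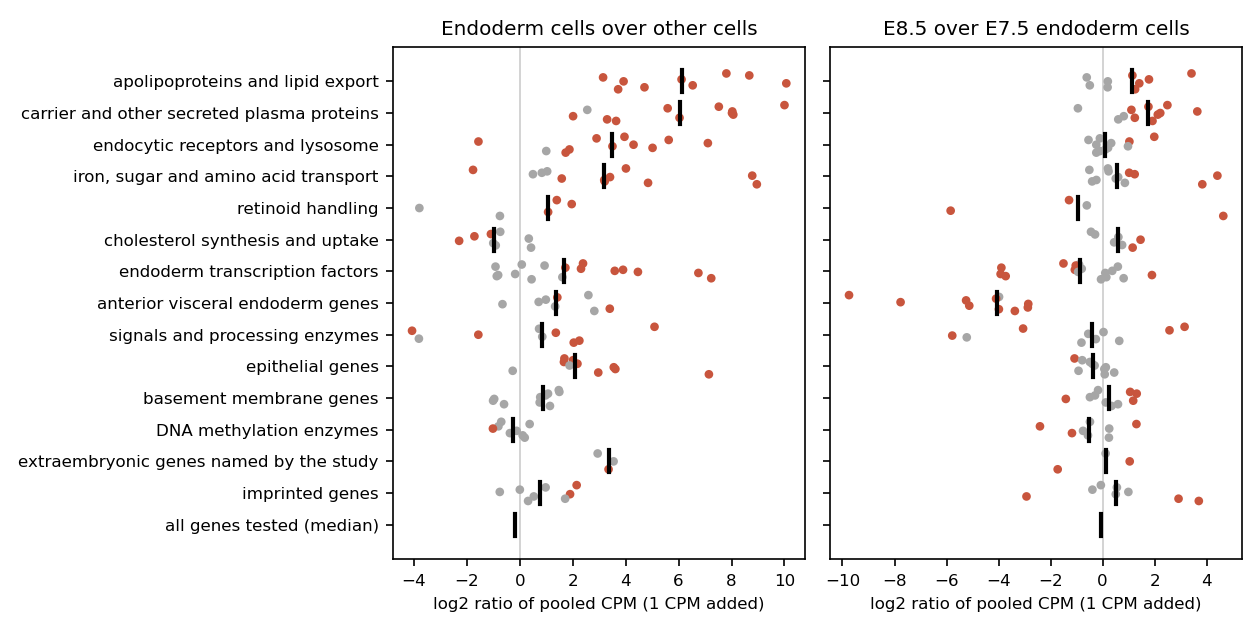
Log2 ratio of pooled CPM (1 CPM added) for each tested gene of 14 lists, for endoderm cells over other cells (left) and E8.5 over E7.5 endoderm cells (right). Red points met the call rule, grey points did not, and black bars mark the median, which is 6.11 and 1.14 for lipid export genes, 1.38 and -4.04 for anterior genes, and -0.18 and -0.07 over all genes tested.

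Outside the lists, the called genes with the largest rise at E8.5 were *Marc1* (no read at E7.5, 131.4 CPM later, at least 699.8-fold), *Klhl4*, *Sod3*, *Mcoln2*, *Slc23a3*, *Cldn5*, *Itga3*, *Hapln1*, *Vcan* and *Cd34*. They came from different cells. *Sod3*, an extracellular superoxide dismutase, ran through 0, 180.3 and 471.7 CPM on plate 1, and *Marc1* through 0, 102.5 and 379.2 CPM, whereas *Klhl4*, *Cldn5*, *Hapln1*, *Vcan* and *Cd34* were at 0 in all 17 cells of plate 1 and had reads in 2 to 6 of the 27 E8.5 cells. In the 40 full-marker cells those 5 were no longer called. The largest falls included *Sfrp1* (973.5 to 2.89 CPM), a Wnt antagonist, *Gpc4* (616.99 to 1.98 CPM), a glypican, *Irs4*, *Fgfbp1*, *Coch*, *Rgs8*, *Egflam*, *Shisa2* and *Arid3c*, with log2 ratios from -7.97 to -5.77. *Spink1*, among the highest genes of the members as a whole, was called lower (5217 to 1136 CPM), with 1778, 5389 and 11042 CPM in embryo 4, 1766, 3411 and 9786 CPM in embryo 5 and 675.5, 1104 and 3731 CPM on plate 1. *Srgn*, a parietal endoderm marker in the lists, fell from 248.4 to 6.01 CPM.

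Blood and globin genes were also called higher at E8.5 and are given for what they show of the wells. All 4 tested genes of the blood and vessel precursor list were called, and none passed the minimum in the 40 full-marker cells, which were chosen for low values of them. All 3 tested erythroid genes were called. On plate 1 *Hba-x*, an embryonic globin, ran through 3.30, 59.2 and 569.7 CPM in the endoderm cells, and their pooled level was lower than that of the other cells of that plate by a log2 ratio of -9.38. The origin of these reads was not tested.

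Many of the calls between the days were lost when plate 1 was left out. That leaves 10 E8.5 cells on 4 plates, of which 4 are the *Nepn* and *Krt19* cells. Wells C08 of plate 3, H06 of plate 4 and A06 of plate 6 also remain, with *Kdr* at 2110.5, 936.997 and 1099 CPM. In wells B04, C06 and C08 of plate 6 *Trf* was at 1792, 1736 and 1105 CPM and *Amn* at 1562, 3146 and 1943 CPM. The highest values in the other cells of that set were 117.955 and 129.75 CPM, both in well A07 of plate 7. Calls lost in that set therefore cannot show whether a rise was limited to plate 1, which was not tested. All 10 anterior genes were called lower in that set. *Apoa4* and *Apom* were then at 0.02 and 0.57 and not called, and *Trap1a*, called higher with plate 1 (1.04), was at -0.31. *Afp*, *Apoa2*, *Rbp4*, *Fga*, *Slc2a2*, *S100g*, *Crabp2*, *Ihh*, *Cdx2*, *Dnmt3a*, *Phlda2* and *Dlk1* were called higher, and *Cer1*, *Otx2*, *Lhx1*, *Hhex*, *Eomes*, *Dnmt3b* and *Grb10* lower, with each of the 3 plates left out in turn and in the 40 full-marker cells. Of these genes *Afp* was also used to choose the cells.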

How the data were processed

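Single cells were sorted into 96-well plates and sequenced, and each of the 1824 wells is a sample labelled with its embryonic day. The authors deposited whole-number read counts per gene for 55487 genes (55141 with a symbol). The submitters' processing notes name HISAT2 2.1.0, featureCounts and GRCm38. The strand and multi-mapping settings are not given in the sources used here, so genes with close copies or overlapping neighbours are uncertain. From these counts CPM (counts per 1000000 reads) was computed per cell and per pool of cells, 1 CPM was added before log2, and genes under 10 CPM in both pools were left out. Poisson and binomial intervals are exact, at 95%, and cover counting error only, since reads made by PCR are not independent molecules. No p-value was computed, because the cells were chosen by the genes compared and E8.5 has no named animals. Members and gene lists were chosen with earlier results of these data known.

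Depth ranged from 128738 to 2530425 reads over the 53 cells. Named genes are all genes of the lists, 10 further genes of highest and 5 of lowest ratio in the endoderm cells, and 10 of each between the days, among called genes with at least 50 CPM in the higher pool and without pseudogenes and unnamed gene models. Marker-list genes are also given. Features of single cells were read again after thinning to 100000 reads. No doublet caller was run, since the methods describe a sort of single cells. Python 3.11.15, numpy 2.4.6, pandas 2.3.3 and scipy 1.17.1 were used, and edgeR 4.0.16 in R 4.3.3 served for scaling factors only. The calls were tested on simulated data with counting noise only. Those data lack the spread between cells and plates, so false calls from that spread were not measured. Alternatives covered scaling, the minimum, the added CPM, the marker rule, quality limits, the other cells used and each plate left out. Every table column belonged to a sample of the series (0 without one). Some items that these rules would name are not reported here.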

Additional observations from a re-analysis of the deposited data

Results flagged for a closer look

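E8.5 plate 1 stood apart from the other E8.5 plates in its share of endoderm cells (18.5%, with 4.55% on the next plate). The gap was 0.754 of the range over 8 plates, above Dixon's limit for 8 values. Groups drawn from 1 normal spread pass this limit in about 1 in 20 cases. Plates sorted by gates that may differ need not follow such a spread, so the limit serves as a flag only. The sort gate of each plate is not in the labels, and its part in the share was not tested.

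Below the read minimum, 2 wells held all 6 endoderm genes at 50 CPM or more. Well A05 of E8.5 plate 1 held only 11 *Afp* reads and few others, and well F04 of E8.5 plate 3 had 19609 reads, of which 12 were from *Afp*.

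For 13 list genes the endoderm cells differed from the other cells of their plate in one direction on E8.5 plate 1 and in the opposite direction in both embryos. The difference itself was not tested. The within-plate log2 ratios on plate 1 were -1.56 for *Bmp2*, -4.60 for *Hesx1*, -2.70 for *Grb10* and -3.89 for *Hhex*, against 2.29, 3.67, 2.25 and 2.90 in embryo 4 and 2.58, 5.53, 1.87 and 4.37 in embryo 5. They were above 0 on plate 1 for the imprinted *Phlda2* (9.19), the homeobox gene *Cdx2* (5.32), *Rhox6* (5.29), *Sox7* (3.16), *Pim2* (2.27), *Hspg2* (1.82), *Crabp2* (1.64), *Snai1* (1.52) and *Pmp22* (1.20), and below 0 for all 9 in both embryos. The other cells differ between plates as well, so these ratios also move with what else was sorted.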

How the results depend on the processing

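The number of endoderm cells ran from 48 (4 or more markers) to 64 (2 or more). The share of genes called higher in endoderm cells ran from 8.41 to 14.7% and lower from 8.17 to 12.9% over all settings, and with 1 plate left out from 11.2 to 12.8% and from 8.94 to 12.9%. Between the days the shares ran from 10.6 to 18.7% and from 12.6 to 23.1%, and with 1 plate left out from 13.1 to 18.7% and from 14.8 to 18.2%. Of the calls, 44.8% were higher at E8.5, 52.4% with TMM scaling and 57.2% with median-of-ratios scaling, which moved the median of all genes by 0.10 and 0.17 on the log2 scale. In endoderm cells 52.1% of calls were higher, and 64.4% against other cells of the 3 main plates only. TMM and median-of-ratios scaling moved that median by 0.12 and 0.13.

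Of 99 named genes called in endoderm cells, 79 were called in every setting, and of those called between the days, 55 were. Some log2 ratios changed sign, and the cause was not tested. In endoderm cells these were *Dkk1* without embryo 5 (-0.52, up to 2.21 with another plate left out), *Plat* in the 40 full-marker cells (-0.74), and, against other cells of the 3 plates, *Kdr* (0.60), *Pecam1* (0.78), *Hapln1* (1.88), *Vcan* (0.92) and *Cd34* (4.54). Between the days *F2* (-0.094), *Gc* (-0.59), *Sox17* (0.19) and *Trap1a* (-0.31) turned without plate 1, and reached 1.64, 2.18, -1.63 and 1.41 at the other end of the range with 1 plate left out. *Vtn* turned with 4 or more markers (-0.35), in the 40 full-marker cells (-2.80), without plate 7 (-2.67, against 2.92 without plate 1) and with members of the 3 plates (-2.53). The 40 full-marker cells also turned *Hspg2* (-0.037), *Nepn* (-1.03), *Kdr* (-0.42) and *Vcan* (-1.48). *Nepn* was at -0.96 without plate 7 and at 8.92 without plate 1. Members of the 3 plates gave *Nepn* -1.09, *Kdr* -0.38, *Pecam1* -0.042, *Hapln1* -0.20 and *Vcan* -1.57. The 40 full-marker cells, the set without plate 7 and the members of the 3 plates were chosen after seeing the data. No paired analysis was possible because no test was run and the groups share no animals. Depth limits single-cell zeros, since a cell of 128738 reads can miss a gene at a few CPM.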
